A study of Rattus norvegicus with 12 samples.

Results

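Complex I, or NADH:ubiquinone oxidoreductase, was described here through the rat genes for its subunits and for the factors named after it that help to build it. Members were the genes on the array whose name in the file begins with Nduf, with Ndufa4 left out. This rule gave 43 genes of the 36180 gene names on the array, 36 for subunits and 7 for assembly factors, read by 56 of the 45598 distinct probes. The cells were N27, an immortalised rat line that the labels call dopaminergic neurons. There were 7 cultures with Vdac1 removed by CRISPR (KO 1 to KO 7) and 5 wild-type cultures (WT 3 and WT 5 to WT 8), all taken at one stated confluence with no other treatment named, and 1 Agilent array per culture in 1 colour. The sources used here do not say whether the knockout cultures are 1 clone, or whether any cultures were grown apart, so the p-values measure only the spread between these cultures.

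Complex I is the entry point for electrons from NADH into the mitochondrial respiratory chain. Its peripheral arm stands in the matrix, where flavin takes electrons from NADH and a row of iron-sulfur clusters passes them to ubiquinone. Its membrane arm pumps protons across the inner membrane. Core subunits, shared with bacteria, do the chemistry, and part of them are encoded by mitochondrial DNA. The many accessory subunits are nuclear-encoded, and assembly factors insert cofactors or join part-built modules and then leave. In dopaminergic neurons the complex is known as the target of rotenone and of MPP+, toxins that kill these cells. VDAC1, the protein encoded by the gene targeted in the knockout, is a channel for metabolites in the outer mitochondrial membrane. The arrays measure RNA and not this protein. The comparison asks which of the complex I transcripts differ between the Vdac1 knockout and wild-type cultures.

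Levels are given as log2 of the processed spot signal minus the 75th percentile of the same array, and differences as knockout minus wild type on that scale. Levels of different genes were not set against each other. Probes of the same gene were ranked by brightness, to choose which stands for it. The 75th percentile was 142.7 to 691.8 on knockout arrays and 120.1 to 449.7 on wild-type arrays, 42.9% to 53.8% of spots were well above background on knockout arrays and 42.3% to 50.9% on wild-type arrays, and 0 spots were saturated. Arrays lay on 3 slides, each with both genotypes. Slide 3, which held KO 4, KO 5, WT 6 and WT 7, was scanned on a later day than slides 1 and 2. Its arrays had the lowest 75th percentiles, between 120.1 and 189.7. The arrays labelled 1 to 4 (KO 1 to KO 4 and WT 3) and those labelled 5 to 8 stand apart over all features, and the labels give no meaning to these numbers.

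Vdac1, the gene removed, was lower on every knockout array than on every wild-type array. Its brightest probe had a lowest level of 1.20, a median of 2.26 and a highest of 2.68 on the 7 knockout arrays, against 3.61, 3.14, 3.07, 3.16 and 3.07 on WT 3 and WT 5 to WT 8. The difference was -1.23 (exact two-sided permutation p = 0.00505), and limma's adjusted p over all features, 0.0560, missed the threshold. Its dimmer probes differed by -1.22 and -1.15 (exact two-sided permutation p = 0.00126 and 0.00631). For these, limma's adjusted p over all probes was 0.0422 and 0.0897. The knockout arrays were not alike in this gene. The brightest probe was at 2.26 to 2.68 on KO 1 to KO 4 and at 1.20 to 1.53 on KO 5 to KO 7. Both dimmer probes were also lower on each of KO 5 to KO 7 than on each of KO 1 to KO 4, and the cause was not tested. Every Vdac1 probe was well above background on all 12 arrays, so its signal was lower but not absent. Of the dopaminergic markers, Th, the enzyme that makes L-DOPA, was well above background on all 12 arrays, while Ddc, Slc6a3, En1 and Foxa2 were on 0 arrays. Nr4a2, a transcription factor of dopaminergic neurons, was well above background on 5 of the 12 arrays, the least that allowed a test. Its levels, near background, ran between -6.30 and -3.51 on knockout arrays and between -4.02 and -3.74 on wild-type arrays. It differed by -1.19 over all 12 arrays with limma's adjusted p at 0.143, and 3 of the 9 markers in this list could be tested. Of these 3, 1 passed limma's test as lower among arrays labelled 5 to 8 alone, where 345 of 14742 features did. Without KO 4, 1 also passed as lower, where 26 features did. Of the markers of other cells, 2 of 8 for neurons, 0 of 5 for astrocytes, 1 of 5 for microglia, 1 of 4 for oligodendrocytes and 3 of 5 for fibroblasts could be tested, and 0 of all these passed the test in limma or reached an unadjusted p under 0.05.

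No complex I gene differed between knockout and wild type past the threshold. Across the 14742 features that could be tested, 1.09% passed limma's test at an adjusted p under 0.05 in either direction, 0.699% higher and 0.393% lower. Of the members, 41 could be tested, 34 subunits and 7 assembly factors, and 0 of the 34 and 0 of the 7 passed. At an unadjusted p under 0.05 there were 3 subunits higher and 0 lower, where 9.35% of all features were higher and 6.23% lower at that threshold. The same threshold was reached by 1 assembly factor higher and 0 lower. To be tested, a member's brightest probe had to be well above background on 5 or more arrays, and 39 of the 43 members were so on all 12. Within slide 2 alone, where 13.5% of all features passed, 2 subunits and 1 assembly factor did, against a lone wild-type array. The knockout arrays of that slide are all labelled 1 to 4 and its wild-type array 5, so genotype and label number cannot be told apart there.

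The subunits as a list had small positive differences. Of the 34 tested, 28 were positive and 6 negative, with a median of 0.16 and a range of -0.10 to 0.44. Over all features tested the median was 0.040 and 55.3% were positive. The median over the 7 assembly factors was -0.085 (range -0.46 to 0.43), with 2 positive and 5 negative. The 95% intervals of 24 of the 41 members lay wholly within a 1.5-fold change in either direction, and those of 40 within a 2-fold change, with Ndufc1 the exception. A p that misses the threshold leaves differences of that size possible.

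**Figure D1:**
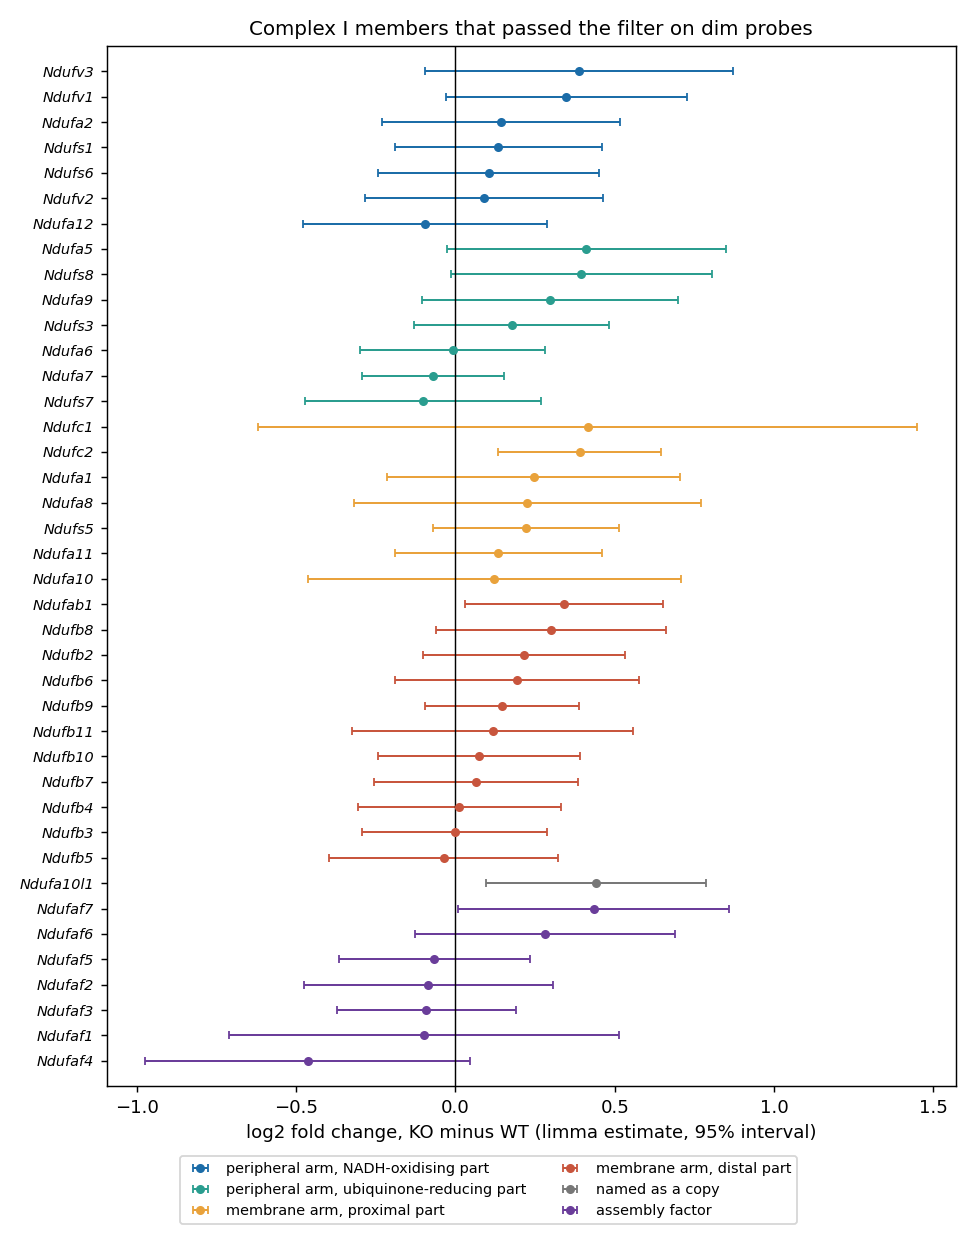
Log2 fold change of 40 of the 41 tested members, knockout minus wild type, with limma's 95% interval as the bar and 1 row per gene, coloured by part of the complex. Intervals of Ndufc2, Ndufab1, Ndufa10l1 and Ndufaf7 lie right of 0, those of the other members shown include 0, and 27 of the 33 subunit estimates shown lie right of 0.

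In the part of the peripheral arm that oxidises NADH, 7 of 8 subunits were tested, 6 were positive, and the median difference was 0.13. Ndufv1, the subunit that binds NADH and flavin, had levels of 2.72 (lowest), 2.98 (median) and 3.27 (highest) on knockout arrays, against 3.16, 2.65, 2.74, 2.05 and 2.81 on WT 3 and WT 5 to WT 8. The groups overlapped, since WT 3 lay near the top of the knockout range and WT 7 far below it. The difference was 0.35 (SE 0.18) with limma's adjusted p at 0.356. Its iron-sulfur partner Ndufv2 differed by 0.09 (limma's adjusted p 0.853), and Ndufs1, the subunit that carries several of the clusters of this arm, by 0.13 (limma's adjusted p 0.708). The accessory subunits Ndufs6 and Ndufa2 differed by 0.10 and 0.14. Ndufa12 was the negative estimate of this part, at -0.10. Ndufs4, an accessory subunit whose loss causes Leigh syndrome in humans, was well above background on 1 knockout array and 0 wild-type arrays and was not tested.

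Ndufv3, a small accessory subunit at the tip of this arm, has 2 probes on the array, both well above background on all 12 arrays. In rn4, the build of the array file, the exon probe lies at chr20:9957258-9957317 on the plus strand. The letters of the other probe lie between chr20:9952694-9960046 on the same strand, an interval of 7353 bases that holds the exon probe, so it reads transcripts joined across that interval. Both are shown because they read different stretches of the gene's transcripts, with no letters in capitals:

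Ndufv3 exon probe: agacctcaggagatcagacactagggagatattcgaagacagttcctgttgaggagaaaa
Ndufv3 junction probe: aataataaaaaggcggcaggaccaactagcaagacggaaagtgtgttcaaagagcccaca

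The exon probe, the brighter of the pair, had a lowest level of -0.73, a median of 0.05 and a highest of 0.20 on knockout arrays, against -0.05, -0.70, -0.90, -0.39 and -0.92 on WT 3 and WT 5 to WT 8. It followed the label numbers, with every array of numbers 1 to 4 above every array of numbers 5 to 8, and differed between genotypes by 0.39 (limma's adjusted p 0.426). The junction probe had a lowest level of -0.50, a median of -0.20 and a highest of -0.05 on knockout arrays, against 0.09, -1.06, -1.03, -0.95 and -1.14 on the wild-type arrays in the same order. On that probe all 7 knockout arrays lay above WT 5 to WT 8, while WT 3 lay above all of them. Its difference was 0.59 (SE 0.20), with limma's adjusted p over all probes at 0.169.

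In the part of the peripheral arm that reduces ubiquinone, all 8 subunits were tested, 5 were positive, and the median difference was 0.17. Ndufs8, a core subunit that carries iron-sulfur clusters, had levels of -0.16 (lowest), 0.51 (median) and 0.85 (highest) on knockout arrays, against 0.22, 0.35, 0.31, -0.37 and 0.05 on WT 3 and WT 5 to WT 8. Most knockout arrays were above the wild-type arrays, but KO 5 was below all of them except WT 7. The difference was 0.40 (SE 0.19), with limma's adjusted p at 0.335. The core subunit Ndufs3 differed by 0.18, with limma's adjusted p at 0.577. Ndufs7, which carries the last cluster before ubiquinone, differed by -0.10 (limma's adjusted p 0.821), the lowest estimate among the subunits. Over the 7 nuclear-encoded core subunits 6 estimates were positive with a median of 0.17, and over the 27 accessory subunits tested 22 were positive with a median of 0.15.

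Among the accessory subunits of the same part, Ndufa5 differed by 0.41 and Ndufa9, a member of the short-chain dehydrogenase family, by 0.30, with limma's adjusted p at 0.346 and 0.465. Ndufa6 and Ndufa7 differed by -0.01 and -0.07. The level of Ndufa7 varied least of all members, with SDs of 0.09 on knockout and 0.06 on wild-type arrays, and its 95% interval ran between -0.29 and 0.15. A second, dimmer probe of Ndufa7, designed on an expressed sequence tag and well above background on 11 arrays, differed by -0.61 (limma's adjusted p over all probes 0.126). Both probes were negative and differed in size.

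In the proximal part of the membrane arm, 7 of the 9 subunits listed were on the array under their Nduf names and all 7 estimates were positive, with a median of 0.23. Ndufc2, an accessory subunit of this part, was the sole member with no overlap between the groups. Its levels were 3.73 (lowest), 3.86 (median) and 4.08 (highest) on knockout arrays, against 3.60, 3.36, 3.71, 3.52 and 3.36 on WT 3 and WT 5 to WT 8. Every knockout array was above every wild-type array, by a narrow gap between KO 7 and WT 6. Means were 3.90 ± 0.13 (SD, n = 7) in knockout and 3.51 ± 0.15 (SD, n = 5) in wild type, a difference of 0.39 (SE 0.12, 1.31-fold), with limma's adjusted p at 0.129. Over all features, 1.85% had every knockout array above every wild-type array and 0.889% had every one below, and 1 of 34 subunits is near the first of these shares. Leaving out each array in turn gave differences of 0.35 to 0.44.

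Ndufc1, the small partner of Ndufc2, was well above background on 4 knockout and 2 wild-type arrays and varied most of all members, with SDs of 1.00 on knockout and 0.82 on wild-type arrays. Its difference of 0.41 (SE 0.48) had limma's adjusted p at 0.718. Ndufa10, well above background on 6 knockout and 3 wild-type arrays, differed by 0.12 (SE 0.27). Ndufa1 differed by 0.25, Ndufa8 by 0.23, Ndufs5 by 0.22 and Ndufa11 by 0.13, with limma's adjusted p between 0.448 and 0.709. With Ndufa10 and Ndufc1 left out, the median over the other 32 subunits was again 0.16.

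In the distal part of the membrane arm, 11 of the 12 subunits listed were tested, 9 were positive, and the median difference was 0.12. Ndufab1, the mitochondrial acyl carrier protein, which also serves fatty acid synthesis and iron-sulfur cluster assembly, had levels of 3.08 (lowest), 3.27 (median) and 3.39 (highest) on knockout arrays, against 2.75, 2.64, 3.02, 3.38 and 2.74 on WT 3 and WT 5 to WT 8. The knockout arrays lay above all wild-type arrays except WT 7, which was near the top of the knockout range. The difference was 0.34 (SE 0.14), with limma's adjusted p at 0.274. Ndufb8 differed by 0.30 and Ndufb2 by 0.22, with limma's adjusted p at 0.409 and 0.505. The other Ndufb subunits (Ndufb3, Ndufb4, Ndufb5, Ndufb6, Ndufb7, Ndufb9, Ndufb10 and Ndufb11) differed by -0.04 to 0.19.

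The names Ndufa3, Ndufb1 and Ndufa13 gave no member. The gene that RefSeq names Ndufa13 stands in the file under an older provisional name and differed by -0.06 (limma's adjusted p 0.913). Likewise the gene RefSeq names Ndufaf8 differed by -0.06 (limma's adjusted p 0.921). None of the 7 subunits encoded by mitochondrial DNA was on the array under its name, so these values describe the nuclear-encoded subunits. Ndufa4, left out by the rule because it belongs to complex IV, differed by 0.28 (limma's adjusted p 0.582).

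The 2 members named as copies could not be placed in the complex. Ndufa10l1 had levels of 1.40 (lowest), 1.87 (median) and 2.13 (highest) on knockout arrays, against 1.51, 1.52, 1.46, 0.86 and 1.46 on WT 3 and WT 5 to WT 8. The knockout arrays except KO 5 lay above all wild-type arrays, and WT 7 lay well below the other wild-type arrays. The difference was 0.44 (SE 0.16), the highest estimate among the subunits, with limma's adjusted p at 0.198. Both probes of Ndufa10l1 lie on chromosome 9 of rn4 per the file, where RefSeq's newer build has Ndufa10, while RefSeq places Ndufa10l1 on chromosome 6, so which copy these probes read is uncertain. The probe named Ndufa10 lies between them on the same strand, so these names may count 1 gene as 2 subunits, which was not tested. The dimmer of its probes differed by 0.19. Ndufa4l2, a paralogue of Ndufa4, was well above background on 0 arrays and was not tested.

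**Figure D2:**
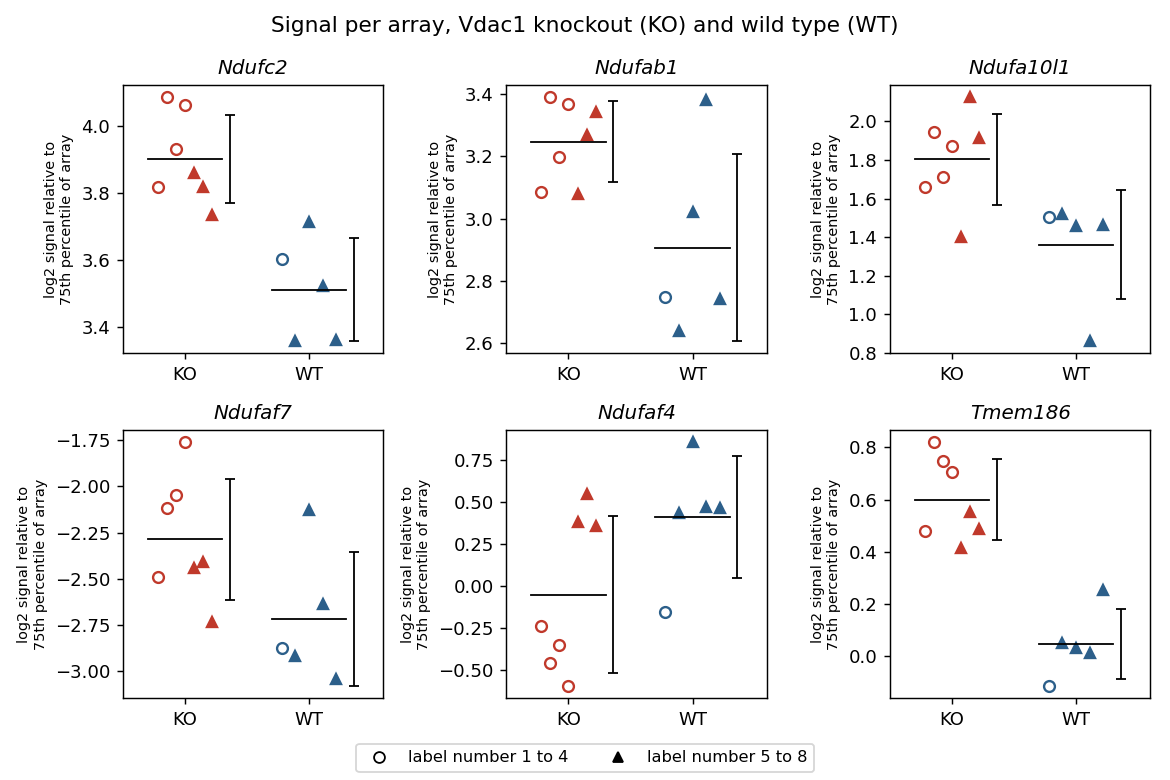
Log2 signal relative to the array's 75th percentile for 5 members and for Tmem186, an assembly factor outside the Nduf names, with 1 point per array, knockout left and wild type right, the line at the mean and the bar 1 SD. Open circles are arrays labelled 1 to 4 and filled triangles those labelled 5 to 8. Groups do not overlap for Ndufc2 and Tmem186, and Ndufaf4 separates by label number.

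No assembly factor with an Nduf name passed the test. Ndufaf4, which acts with Ndufaf3 early in the building of the ubiquinone-reducing part, had the lowest estimate of all members. Its levels were -0.60 (lowest), -0.24 (median) and 0.55 (highest) on knockout arrays, against -0.16, 0.43, 0.86, 0.47 and 0.47 on WT 3 and WT 5 to WT 8. Every array labelled 1 to 4, WT 3 included, lay below every array labelled 5 to 8, so the order followed the label numbers more than the genotype. The difference was -0.46 (SE 0.24), with limma's adjusted p at 0.360, and a second probe differed by -0.49. Over all features, 7.09% had every array of numbers 1 to 4 below every array of numbers 5 to 8. Its partner Ndufaf3 differed by -0.09.

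Ndufaf7, a methyltransferase that modifies a complex I subunit in human cells, had levels of -2.73 (lowest), -2.41 (median) and -1.76 (highest) on knockout arrays, against -2.87, -2.92, -2.13, -2.63 and -3.04 on WT 3 and WT 5 to WT 8. WT 6 lay among the highest knockout arrays, so the groups overlapped. The difference was 0.43 (SE 0.20), with limma's adjusted p at 0.309, while another probe of the gene that could be tested differed by 0.04. Ndufaf1, of the machinery that builds the proximal membrane arm, differed by -0.10 (SE 0.28). Ndufaf2, a paralogue of Ndufa12 that holds its place during assembly, differed by -0.08. Ndufaf5, which hydroxylates an arginine of NDUFS7 in human cells, differed by -0.07, and Ndufaf6 by 0.28. For these, limma's adjusted p lay between 0.497 and 0.907.

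Of 15 further assembly factors without the Nduf name, 14 were tested, and 1 rose and 0 fell, where 0.699% of all features rose and 0.393% fell. The gene that rose was Tmem186, which in human cells works with NDUFAF1, ECSIT, ACAD9 and TMEM126B on the membrane arm. Its levels were 0.41 (lowest), 0.55 (median) and 0.82 (highest) on knockout arrays, against -0.12, 0.05, 0.03, 0.01 and 0.25 on WT 3 and WT 5 to WT 8. Every knockout array was above every wild-type array, as for 1.85% of all features. Means were 0.60 ± 0.16 (SD, n = 7) in knockout and 0.05 ± 0.13 (SD, n = 5) in wild type, a difference of 0.55 (SE 0.12, 1.47-fold), with limma's adjusted p at 0.0468. The difference was positive under each of the 26 alternatives, between 0.40 and 0.80, but passed the test in only 5 of them.

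The partners of Tmem186 had smaller estimates of either sign. Ecsit differed by 0.18, Tmem126b by 0.11, Acad9 by -0.09 and Ndufaf1, given above, by -0.10. Timmdc1, another of the 14 factors, differed by -0.0030. For Ecsit, Tmem126b, Acad9 and Timmdc1, limma's adjusted p lay between 0.702 and 0.997. Foxred1, which acts late in assembly, differed by -0.49 (SE 0.21), with limma's adjusted p at 0.292. Over the 14 factors 8 estimates were positive and the median was 0.10.

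**Figure D3:**
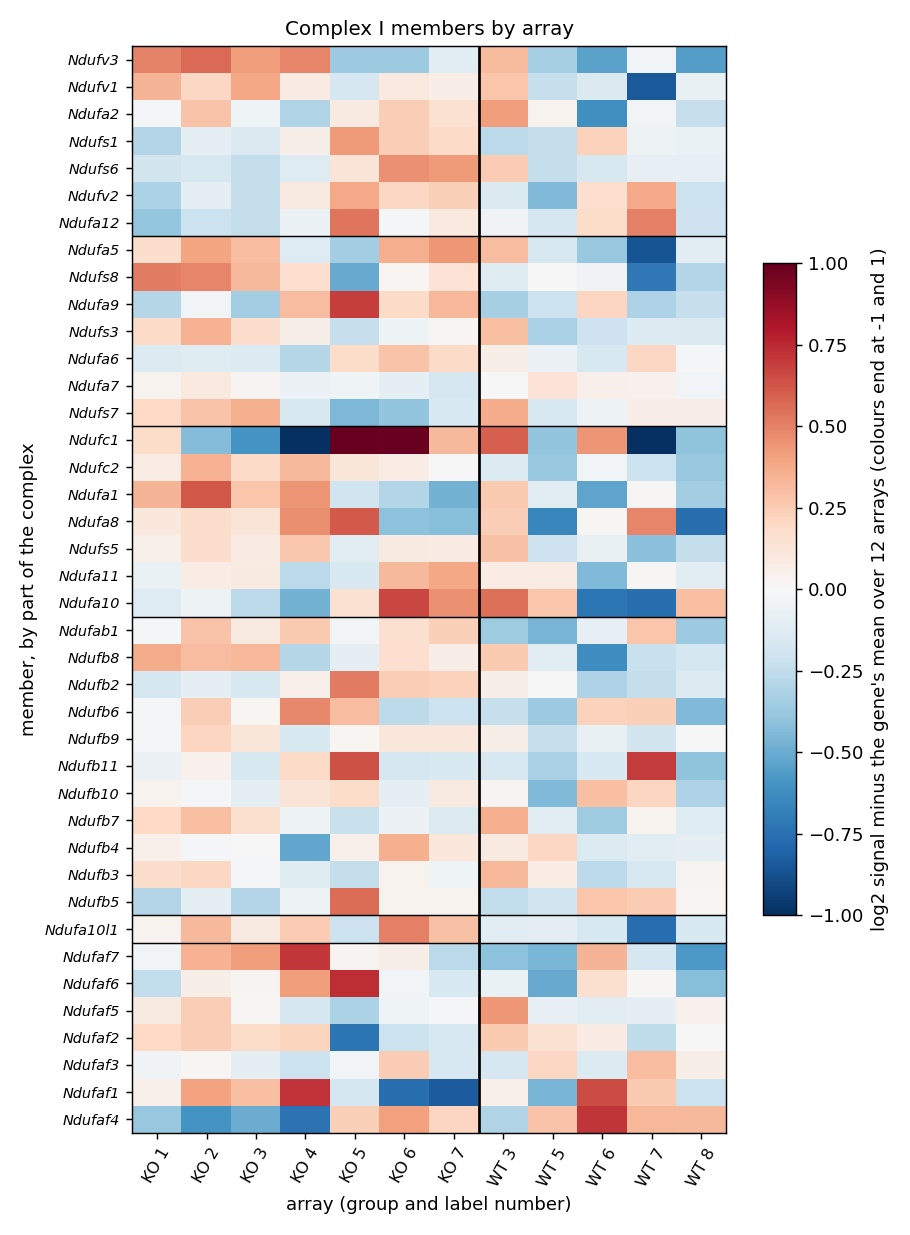
Log2 signal of 40 of the 41 tested members minus the gene's mean over the 12 arrays, with 1 row per gene ordered by part of the complex and 1 column per array, knockout left of the line and wild type right. Red is above and blue below the gene's mean, and KO 5 and WT 3 hold many of the extreme values of their groups.

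The SD within groups, pooled over both, had a median of 0.27 over the 41 members. KO 5 was the highest knockout array for 11 members and the lowest for 13, and KO 2 was the highest for 12 and the lowest for 0. WT 3 was the highest wild-type array for 18 of the 41 members and WT 8 for 0. Of the subunits, Ndufa1, Ndufs3 and Ndufv3 had every array labelled 1 to 4 above every array labelled 5 to 8, as did Ndufaf2, which 6.96% of all features did.

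As a value for each array, the median was taken over the 34 subunits of the level minus the gene's mean over all arrays. It was between 0.04 and 0.17 on knockout arrays (0.08 ± 0.05, SD, n = 7) and between -0.20 and 0.07 on wild-type arrays (-0.10 ± 0.11, SD, n = 5). WT 3 lay within the knockout range and WT 5 to WT 8 lay below it. Among arrays labelled 5 to 8 alone, the median subunit difference was 0.22, with 30 of 34 positive against 58.5% of all features. Among those labelled 1 to 4, with WT 3 as their single wild-type array, it was -0.025, with 14 of 34 positive against 49.3% of all features. Whether these medians differ was not tested. Within slides 1, 2 and 3 the median subunit difference was 0.14, 0.29 and 0.16.

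The size of the subunit median also moved with the scaling of the arrays. With quantile normalization in place of the 75th percentile it was 0.091, with 22 of 34 positive against 50.7% of all features. In the authors' deposited table of quantile-normalized values it was 0.069, with 21 of 34 positive against 50.3% of all features. After quantile normalization the value per array was between -0.02 and 0.10 on knockout arrays and between -0.06 and 0.02 on wild-type arrays, so the groups overlapped. The estimates of Ndufb4, Ndufb7, Ndufb9, Ndufb10, Ndufb11 and Ndufv2 were negative under both. For the assembly factors, the values of the groups overlapped under either scaling.

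**Figure D4:**
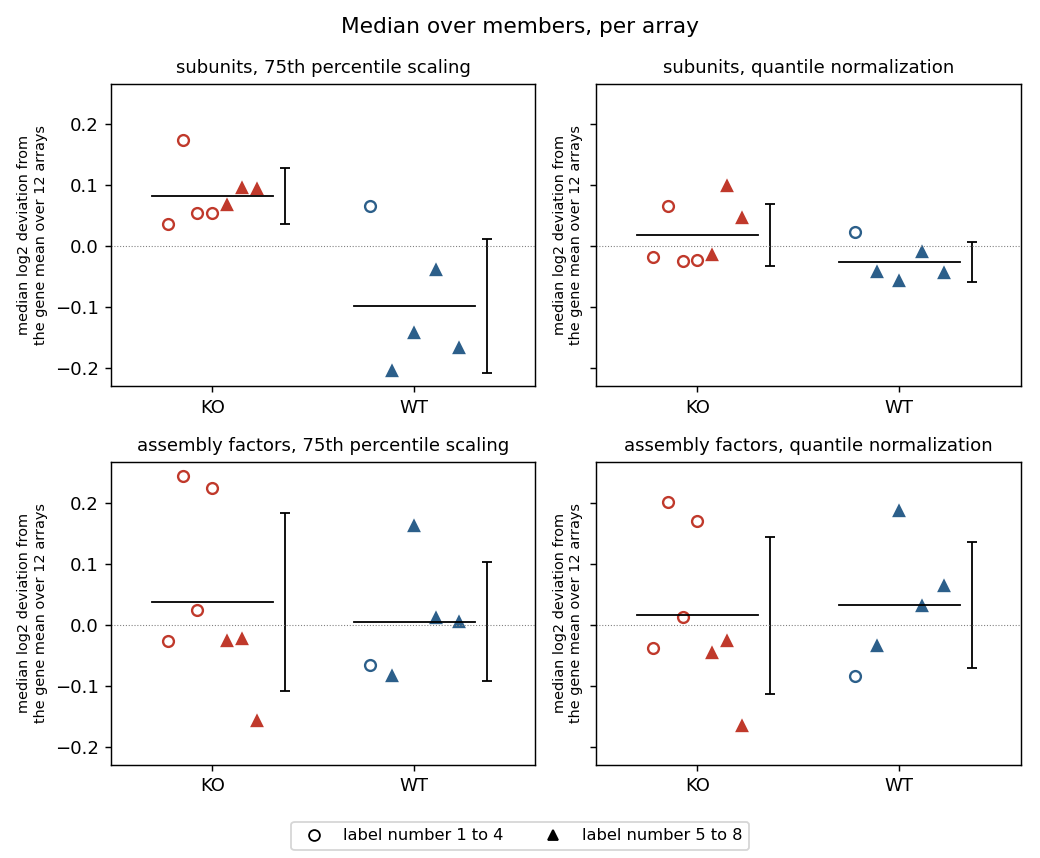
Median over the tested subunits (upper panels) or assembly factors (lower panels) of the log2 deviation from the gene's mean over 12 arrays, with 1 point per array, knockout left and wild type right, the line at the mean and the bar 1 SD. With 75th-percentile scaling the knockout subunit values lie above WT 5 to WT 8 and level with WT 3, and after quantile normalization the groups overlap.

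Genes that feed the same pool of ubiquinone, or supply complex I with its parts, gave 0 calls in the fit without a block. With the set of label numbers, 1 to 4 or 5 to 8, as a block, limma called Sqor, which passes electrons from sulfide to ubiquinone, at 1.23, and the iron-sulfur factors Isca2 and Bola3 at 0.58 and 0.79, where 3.03% of all features were called higher. Among arrays labelled 5 to 8 alone, Sqor and Bola3 were called at 1.36 and 0.97, where 2.25% of all features were called higher. Gabpa, a subunit of an ETS factor among the regulators of nuclear genes for respiration, differed by -0.68 within slide 2. There KO 1 to KO 3 stand against WT 5 alone, so genotype and label number cannot be told apart. Over all 12 arrays Gabpa differed by -0.36 (limma's adjusted p 0.528). These 4 genes are named because they were called with that block or in part of the arrays, after their values were seen. Complex II, which reduces ubiquinone with electrons from succinate, had 7 of 7 tested genes positive with a median of 0.24, and the smallest p was that of Sdhb, its iron-sulfur subunit, at a difference of 0.23 (limma's adjusted p 0.377). Of 6 genes tested for other routes to ubiquinone, Gpd2, the mitochondrial glycerol-3-phosphate dehydrogenase, differed by -0.61 and Etfdh, which takes electrons from fatty acid oxidation, by -0.38, with limma's adjusted p at 0.194 and 0.307. Of 12 genes tested for ubiquinone synthesis and handling, Coq10b had the smallest p, at a difference of -0.34 (limma's adjusted p 0.345).

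Of 11 genes tested for iron-sulfur cluster assembly, 2 were higher and 1 lower at an unadjusted p under 0.05, where 9.35% of all features were higher and 6.23% lower. Nfs1, the cysteine desulfurase that supplies the sulfur, differed by 0.39, and Bola3, a late-acting factor, by 0.52, with limma's adjusted p at 0.139 and 0.289. Hspa9, the mitochondrial chaperone of this pathway, differed by -0.37 (limma's adjusted p 0.183). Of 8 tested regulators of nuclear genes for respiration, Nrf1 had the smallest p, at a difference of -0.40 (limma's adjusted p 0.370), and Ppargc1a was well above background on 0 arrays.

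Promoters of the members were compared for letters of factors known to bind promoters of genes for respiration. RefSeq promoters of rat build GRCr8, running between 250 bases before and 50 after the start, matched 38 of the 43 members. Each motif was searched as 7 letters on both strands, a form chosen after longer ones had been looked at, and the 3 motifs overlapped one another in 0 places. The letters GATGGCG, the YY1 type, were in 10 of 38 member promoters (26.3%) and in 3.89% of all 33469 promoters. The letters GCGCATG, the NRF1 type, were in 6 of 38 (15.8%) and in 3.77% of all, and CCGGAAG, the ETS type, in 7 of 38 (18.4%) and in 8.75% of all. The set of all promoters was not limited to genes that could be tested here, as 41 of the 43 members could, so the bases are unlike. In 6 of the 10 promoters with the YY1 type, the first match lay on the gene's own strand, 7 to 29 bases after the start. These 6 were picked by that strand and position, the first matches of the others lying before the start, and 5 of the 6 are shown as examples. Capitals mark the motif, and each window is 30 bases along the gene's strand, at chr1:31797416-31797445 (plus), chr1:253362893-253362922 (minus), chr2:47794888-47794917 (minus), chr4:161374138-161374167 (minus) and chr7:10110472-10110501 (minus), in the order of the lines:
Ndufs6: cgtcggcaaGATGGCGgcggcgctgacctt
Ndufb8: gaaggtgaaGATGGCGgcgtcccgggctgc
Ndufs4: ccacaggaaGATGGCGgcggtctcaatgtc
Ndufa9: gtgggagaaGATGGCGgccgccgtccgctt
Ndufs7: cgaggccaaGATGGCGgcgctggcgggtga

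The remaining one of the 6 is Ndufa2. Over all 1301 promoters that hold these letters, 31.4% had them on the gene's strand after the start. The letters include ATG, and whether that is the start codon in these genes was not tested. A match is a description of letters and not a binding site. The 9 tested members with the YY1-type letters differed by -0.10 to 0.30 with a median of 0.10, and the 6 with the NRF1-type letters by -0.46 to 0.30 with a median of 0.063. These sets also hold assembly factors, Ndufaf3 in the first and Ndufaf4 and Ndufaf5 in the second, and the -0.46 is that of Ndufaf4. The median was 0.16 over all 34 tested subunits and -0.085 over the 7 assembly factors, so the sets compared are unlike.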

How the data were processed

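Trizol RNA was labelled with Cy3, per the labels' protocols. The authors' scanner files give linear spot intensity, and other columns flag spots (above background, saturated, uneven), per the file headers, which name Agilent Feature Extraction 10.1.1.1 and build rn4 (version 10.7 per the submitters' processing notes). The deposited value table holds log2 values, quantile normalized per the labels, with a median of 3.06 in every column. Uneven or outlying spots were left out, log2 processed signals averaged per probe, and the array's 75th percentile subtracted. The brightest probe stood for each gene. Features well above background on at least 5 of 12 arrays were fitted without covariates by lmFit and eBayes of limma 3.58.1 (R 4.3.3), and two-sided p-values were adjusted by Benjamini-Hochberg over 14742 features. The script was tested on simulated data.

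Groups came from the labels. The members, lists and tests were chosen with earlier results of these data known. Named are members past adjusted or unadjusted p under 0.05 or without overlap, the 3 highest and 3 lowest differences, members failing the filter, assembly factors and core subunits, and up to 4 genes per other list. Other genes were named after their values were seen. For 1 member no values are reported here, and counts and medians include it except where 40 members are named. The number of arrays limits the precision. Alternatives were normexp background correction with offset 50, quantile normalization, the deposited table, other filters, probe means, slide, label number or number set as a block, single slides or number sets, and leaving out each array.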

Additional observations from a re-analysis of the deposited data

Results flagged for a closer look

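In 7 of 84 groups of arrays, knockout and wild type for each of 40 tested members, Vdac1 and Tmem186, the highest or lowest array stood apart from the rest of its genotype by more than Dixon's 95% critical value, and chance flags about 1 in 20 groups. Among knockout arrays, Ndufb4 on KO 4 was at 3.52 where the nearest was at 4.03, and Ndufb5 on KO 5 was at 4.07 where the nearest was at 3.55. WT 7 was at 0.86 for Ndufa10l1 (nearest 1.46) and at 3.63 for Ndufb11 (nearest 2.78). WT 6 was at 1.82 for Ndufa9, where the nearest was at 1.39. WT 3 was at 1.08 for Ndufaf5 (nearest 0.69) and at 3.61 for Vdac1 (nearest 3.16). Without any one array, none of these members passed the test, and the difference of Ndufa10l1 ranged between 0.32 and 0.51. The cause was not tested.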

How the results depend on the processing

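Under 26 alternatives the 34 subunits and 7 assembly factors gave 0 calls, except within slide 2, which holds a single wild-type array, WT 5, assumed to vary like the others, against KO 1 to KO 3, so that genotype and label-number set cannot be told apart: there 2 subunits (Ndufa8 at 0.79 and Ndufv3 at 0.82) and 1 assembly factor (Ndufaf4 at -0.78) passed, beside 13.5% of all features. The subunit median was 0.069 in the deposited table, 0.29 within slide 2 and -0.025 among numbers 1 to 4, and 0.13 to 0.22 with arrays left out. The assembly factor median was 0.10 within slide 1, 0.20 within slide 2, 0.085 among numbers 1 to 4, -0.17 within slide 3 and with number set as a block, and -0.11 to -0.02 with arrays left out. Over all features the counts higher and lower were 16 and 9 with normexp, 0 and 0 with no filter, 182 and 109 with the filter on all arrays, 253 and 151 with slide as a block, 446 and 303 with number set as a block, 1062 and 924 within slide 2, 0 and 0 within slides 1 and 3, 332 and 345 among numbers 5 to 8, and 42 and 5 among numbers 1 to 4. There were 56 higher with quantile normalization and 54 higher in the deposited table. With arrays left out they were 9 to 383 and 3 to 268. With label number as a replicate block (3 residual degrees of freedom) they were 0 and 0 and the subunit median 0.15; same-numbered arrays correlated at 0.46, -0.11, 0.07 and 0.05 in their deviations, so the numbers were not taken as pairs. Of 1064 values of members under alternatives, 1002 moved by less than 1 SD. The sign was kept under all 26 by 8 members, among them Ndufc2, Ndufab1, Ndufa10l1 and Ndufaf7. The causes were not tested. Signal near background limits Ndufc1 and Ndufa10.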
